A study of Mus musculus with 17 samples.

Results

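The Myc and Max network was read in the mRNA of 6 populations of mouse hematopoietic stem and progenitor cells. Its members were Myc, Mycn, Mycl1, Max, Mxd1, Mxd3, Mxd4, Mxi1, Mnt and Mga, and every array probe that carries the name of a member was used. These were 19 of 41174 probes, for 10 of 28090 gene names. Agilent single-color whole mouse genome arrays (4×44k) were hybridised with RNA of sorted bone marrow cells from female C57Bl/6 mice aged 6 to 8 weeks, with 10 to 20 mice pooled per replicate. The mice carried no genetic change and received no treatment that the labels name. Bone marrow was depleted of cells with lineage antigens and enriched for c-kit. The HSC subsets were sorted as Lin- c-kit+ Sca1+ cells. Long-term HSC (LT-HSC, n = 2 arrays) were CD34- FLT3-, short-term HSC (ST-HSC, n = 3) were CD34+ FLT3-, and multipotent progenitors (MPP, n = 3) were CD34+ FLT3+. The myeloid populations were sorted separately from Sca1- cells by CD34 and the Fc receptor FcRγ. Common myeloid progenitors (CMP, n = 3) were intermediate for both, granulocyte-monocyte progenitors (GMP, n = 3) were positive for both, and megakaryocyte-erythroid progenitors (MEP, n = 3) were negative for both. By its title, 1 of the LT-HSC arrays pools replicates 2 and 3. The titles number the other arrays except for 1 in each population, called unnumbered here.

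Myc, Mycn and Mycl1 (now Mycl) encode basic helix-loop-helix leucine zipper proteins that bind DNA as heterodimers with Max. The preferred site is the E-box CACGTG, and Myc dimers recruit histone acetyltransferases and raise the transcription of genes for ribosome assembly, metabolism and the cell cycle. Mxd1, Mxd3, Mxd4, Mxi1 and Mnt encode proteins that compete for Max and recruit Sin3 and histone deacetylases, and Mga joins Max in a Polycomb repressor complex. In the blood system the Myc proteins are known for their part in the balance between self-renewal and differentiation of stem cells, and several Mxd proteins, though not Mxd3, are known to increase as cells leave the cell cycle.

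The sequences of the probes and promoters that the results turn on follow. The members other than Myc had 11 promoter windows in a RefSeq table (build GRCm38.p6, from 250 bases before to 50 after each start site). E-boxes are shown because they are the site of the network's own dimers. The letters CACGTG, which read the same on both strands, were found in 3 of the 11 windows, of Max, Mnt and Mxd4, against 7.15% of 32851 promoters of the same length. In the lines below the E-box is in capitals. That of Max starts 3 bases before the start site, that of Mnt 123 bases before it and that of Mxd4 219 bases before it.
Max promoter, chr12:76962234-76962263, minus strand: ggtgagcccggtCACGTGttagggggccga
Mnt promoter, chr11:74830789-74830818, plus strand: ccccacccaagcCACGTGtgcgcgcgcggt
Mxd4 promoter, chr5:34187912-34187941, minus strand: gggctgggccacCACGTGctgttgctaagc

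Mycn had the widest range of levels of the 10 genes, so its promoter and probes are shown. Of 3 forms of the E2F site, TTTGGCGC was found in the Mycn window and in 0.514% of promoters, TTTCGCGC in the Mycn window and in 0.323%, and TTTCCCGC in no window of a member and in 1.07% of promoters. Both strands were searched. The capitals mark TTTGGCGC at 183 and 168 bases before the start site and TTTCGCGC, read on the opposite strand from 179 bases before it, which overlaps the first of these. The letters GATA were found for Mxd1, Mxd4, Mxi1, Mycl and Mycn, and in 57.9% of promoters. A match describes letters and not a bound site.
Mycn promoter, chr12:12941982-12942031, minus strand: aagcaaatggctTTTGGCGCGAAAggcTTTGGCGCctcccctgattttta

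The probes of Mycn and Mycl1, the genes with the widest ranges of levels, are given by their first 30 bases, with the position of the whole probe in mm9, the build of the array design. No mm9 annotation was used here, so exon and UTR positions are not given.
Mycn probe 1, chr12:12943193-12943252, minus strand: tgtactaattcctacacggcctgtatactt
Mycn probe 2, chr12:12944312-12944371, minus strand: tggtcaccgtagagaagagacgttcctcct
Mycl1 probe 1, chr4:122679548-122679607, plus strand: gtggtgttaactgtttttgtataagaaaaa

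The study lists Mycn as a predicted target of miR-144, a microRNA of the red cell lineage, and chose such pairs in part on these arrays, so the prediction is not independent of the levels given here. In a reporter assay of the study, miR-144 lowered luciferase activity through the Mycn UTR sequence, and a control microRNA did not. That assay was not used here. The mature sequence is shown with its seed, bases 2 to 8, in capitals. The reverse complement of the seed was found in 0 of the 19 probes.
mmu-miR-144-3p, chr11:78073047-78073066 of GRCm38.p6, plus strand: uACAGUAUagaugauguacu

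Levels are log2 intensities after quantile normalization over the 17 arrays, so a difference of 1 is a doubling of intensity. Levels of different probes cannot be compared with each other. Scanning took place in 3 runs. The numbered myeloid arrays formed run 1, the unnumbered arrays of all populations but LT-HSC formed run 2, and the 6 remaining arrays, all of HSC subsets, formed run 3. The share of the 43379 non-control spots that stood well above background was 41.4% to 70.1% per array. On the unnumbered LT-HSC array the upper quartile of intensity was 53.1, while it was 243.3 or more on each of the other 16 arrays. Flt3 and Cd34 were highest in MPP, Ly6a, which encodes Sca-1, was highest in LT-HSC, and Fcgr3 was highest in GMP. Not every sort marker followed its gate in mRNA. Ly6a was at 9.71 in GMP, sorted as Sca1-, and at 8.88 in ST-HSC. Cd34 was at 14.96 in LT-HSC, sorted as CD34-, and at 14.29 in GMP, and Flt3 was at 8.24 in LT-HSC, sorted as FLT3-, and at 6.86 in ST-HSC. All 6 GMP markers measured were highest in GMP. Gata1, Klf1, Epor and Zfpm1 were highest in MEP, as were all 5 genes of mature erythroid cells, whose mean was 10.21 to 11.54 in MEP and 5.28 to 9.501 elsewhere. The megakaryocyte genes of the MEP list were not, as Pf4 was lowest in MEP (9.44) and highest in ST-HSC (14.68), and Itga2b was at 7.42 in MEP and highest in CMP (11.72). In LT-HSC, the means of all 6 mature neutrophil genes, all 6 B cell genes and 4 of 6 T cell genes were higher than in the other populations. Of these, Pax5 was well above background on 0 of the 2 LT-HSC arrays, and Mmp9, Cd79a, Cd3g and Cd4 on 1 of 2. The mean of the B cell genes was 8.76 and 9.12 on the LT-HSC arrays and 5.48 to 7.49 elsewhere, and that of the T cell genes was 6.70 and 6.77 against 3.69 to 6.48. The mean of the neutrophil genes was 12.60 and 14.11 in LT-HSC and 9.76 to 13.52 elsewhere. The part of such cells in the results was not tested. In RNA of sorted pools, a lower level can mean fewer cells with the transcript or less transcript per cell, and these cannot be told apart. Beyond the pooling, nothing says which replicates came from separate sorts, so p-values measure the spread between these arrays.

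**Figure D1:**
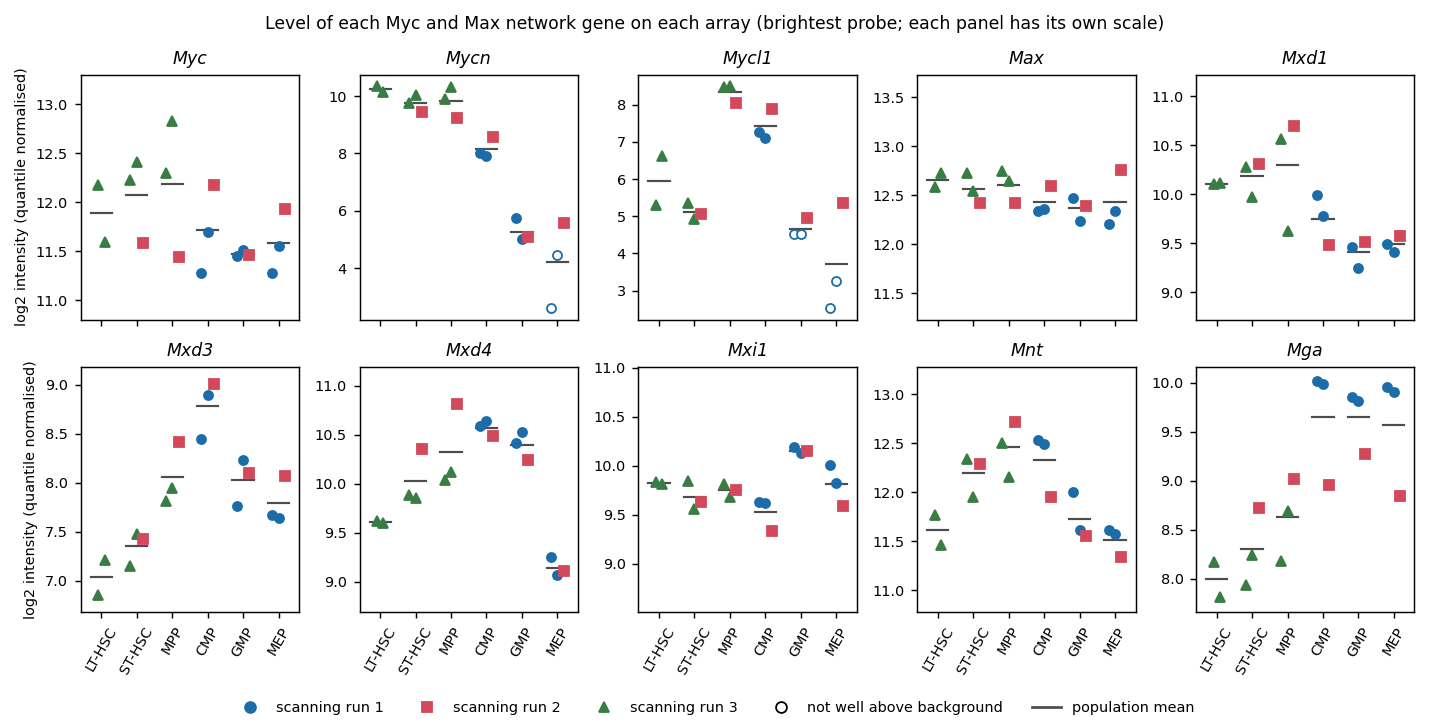
Level of the brightest probe of each of the 10 genes (log2 intensity after quantile normalization, vertical axis, own scale per panel) on each of the 17 arrays by population. Color and shape give the scanning run, open symbols mark arrays where the probe was not well above background, and bars are population means. Mycn stepped down from the HSC subsets over CMP to GMP and MEP, and Max stayed between 12.21 and 12.76 on all 17 arrays.

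Of the 19 probes, 11 differed among the 6 populations by the F-test of limma (adjusted p under 0.05), against 40.6% of all probes. Read by the brightest probe, 8 of the 10 genes differed. The share of all gene names by brightest probe was not computed for this test, so this count has no counterpart. The exceptions were Myc (adjusted p = 0.439) and Max (adjusted p = 0.636). With scanning run as a term, 9 probes differed against 36.7%, and by the brightest probe Mga (adjusted p = 0.403) and Mxd1 (adjusted p = 0.0857) no longer did. Population means as measured spanned 6.04 on the log2 scale for Mycn and 4.64 for Mycl1, against 0.29 for Max. For Mycn and Mycl1 the lowest mean was that of MEP, where 1 of 3 arrays was well above background.

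Mycn, which encodes the Myc protein first found in neuroblastoma, was high in all HSC subsets, intermediate in CMP and low in GMP and MEP. Its brightest probe was at 10.36 and 10.13 in LT-HSC, at 9.77, 10.04 and 9.45 in ST-HSC, and at 9.91, 10.32 and 9.23 in MPP. It was at 8.02, 7.91 and 8.58 in CMP, at 5.74, 5.003 and 5.09 in GMP, and at 2.60, 4.45 and 5.59 in MEP, where the array at 5.59 alone was well above background. Every array of the HSC subsets was above every CMP array, and every CMP array was above every GMP and MEP array. With 7 of 9 myeloid arrays well above background, the mean was 9.94 in HSC subsets and 5.89 in myeloid populations, 16.6-fold apart as measured. On the log2 scale this was 4.05 with a standard error of 0.34 (adjusted p = 1.5e-06 in limma, adjusted by Benjamini-Hochberg over all probes). Mycn fell by 3.16 in GMP (standard error 0.44, adjusted p = 0.000228) and fell by 4.44 in MEP (standard error 0.44, adjusted p = 4.48e-06) against the mean of the other 5 populations. Behind the latter value, 1 of 3 MEP arrays was well above background.

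In the order of levels, LT-HSC, MPP and ST-HSC did not differ beyond their spread in Mycn (adjusted p = 0.762 and 1 for neighbours). The step from ST-HSC to CMP of 1.58 missed the threshold (adjusted p = 0.0911), while LT-HSC was above CMP by 2.08 (adjusted p = 0.0313), a call lost with run in the fit (0.87, adjusted p = 0.547). CMP was above GMP by 2.89 (adjusted p = 0.0084), and GMP and MEP did not differ beyond their spread (adjusted p = 0.273). Within run 2, which held 1 array of each population but LT-HSC, ST-HSC and MPP were above the myeloid arrays by 2.92, the difference of GMP from the others was -3.13 and that of MEP was -2.495. With scanning run in the fit the difference between HSC subsets and myeloid populations was 3.00 (adjusted p = 0.00813). Its size was 2.31 with normexp background correction and 2.94 in the authors' table.

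The dimmer probe of Mycn, well above background on 10 of 17 arrays, was also higher in HSC subsets, by 0.77 (adjusted p = 0.00327). No GMP or MEP array had it well above background. Set against the mean of the others as measured, its level in GMP was at least 1.40-fold lower (adjusted p = 0.0126). Of these others, 10 of 14 arrays were well above background. The highest value, 5.67 on the unnumbered LT-HSC array, was not, so 1.40 is no strict bound. The call was lost without GMP replicate 1 (adjusted p = 0.0903) or without the unnumbered GMP array (adjusted p = 0.0516). Over the 17 arrays the pair of probes had a Pearson correlation of 0.74. Likeness to the brightest probe of Mycn over the 17 arrays was read among 22586 probes well above background on at least 9 arrays. By their most similar probe, the closest gene names were Pear1 (r = 0.98), Eya1 (r = 0.98) and Arhgef17 (r = 0.98).

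Mycl1, another Myc gene, was highest in MPP and CMP. It was at 8.48, 8.51 and 8.05 in MPP and at 7.27, 7.11 and 7.87 in CMP, against 5.31 and 6.61 in LT-HSC and 5.36, 4.93 and 5.06 in ST-HSC. In GMP it was at 4.52, 4.53 and 4.95 and in MEP at 2.52, 3.25 and 5.36, with 1 of 3 arrays well above background in each. No array of any other population reached those of MPP and CMP. MPP was above ST-HSC by 3.23 (adjusted p = 0.00705), the only pair of ST-HSC and MPP called among the 19 probes, against 2.02% of all probes. With scanning run as a term, Mxd3 probe 2 was called between them as well (ST-HSC minus MPP -0.68, adjusted p = 0.0201), against 3.66%. MPP was above LT-HSC by 2.39 (adjusted p = 0.0371) and above MEP by 4.64 (adjusted p = 2.69e-05). The call against LT-HSC was lost with replicate number as a block. CMP was above GMP by 2.75 (adjusted p = 0.0109) and above ST-HSC by 2.30 (adjusted p = 0.0237). The step of 0.93 between MPP and CMP was within the spread (adjusted p = 0.302).

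Averaged over populations, Mycl1 was higher in HSC subsets by 1.21 (adjusted p = 0.0108), an average over a high MPP and low LT-HSC and ST-HSC. It fell by 1.44 in GMP (adjusted p = 0.0331) and fell by 2.59 in MEP (standard error 0.43, adjusted p = 0.000444), with 1 of 3 arrays well above background in both. With scanning run in the fit the difference between HSC subsets and myeloid populations was 0.21 (adjusted p = 0.859) and that of GMP was -0.84 (adjusted p = 0.248), while that of MEP was -1.99 (adjusted p = 0.00408). In that fit MPP stayed above ST-HSC by 3.23 (adjusted p = 0.0019). The GMP call was also lost without any of the GMP arrays, with adjusted p from 0.066 to 0.136. The sizes were smaller in the authors' table, at 0.55 for HSC subsets and -1.13 for MEP.

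Myc itself was bright in all populations. Its brightest probe, printed 10 times on the array, was at 12.18 and 11.59 in LT-HSC, 12.23, 12.41 and 11.58 in ST-HSC, and 12.29, 12.83 and 11.44 in MPP. It was at 11.28, 11.70 and 12.18 in CMP, 11.45, 11.51 and 11.46 in GMP, and 11.27, 11.55 and 11.94 in MEP. The populations overlapped, and the HSC subsets exceeded the myeloid populations by 0.46 (standard error 0.21, adjusted p = 0.0993). No pair of neighbours in the order of levels differed (adjusted p of at least 0.84). The spots of an array varied by an SD of 0.035 to 0.106, while the arrays of a population varied by an SD of 0.035 in GMP and of 0.70 in MPP.

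The values of Myc moved with the scanning run. In ST-HSC and MPP, arrays of run 3 were above those of run 2 by 0.93, and by 1.22 and 0.77 for the other probes. Within run 2 the difference of HSC subsets from the myeloid arrays was -0.34, and with run in the fit the difference was -0.53 (adjusted p = 0.22). The brightest probe had a Pearson correlation of 0.96 and 0.67 with the other probes over the 17 arrays, and none of the 3 probes was called in any of the 3 main comparisons. With run in the fit the dimmest probe was higher in MEP by 0.56 (adjusted p = 0.0375). Without the unnumbered MPP array the difference between HSC subsets and myeloid populations was 0.58 and passed the test (adjusted p = 0.0207). The gene names most like Myc over the 17 arrays were Zbtb25 (r = 0.93), Zfp273 (r = 0.92) and Sap30 (r = 0.90), a subunit of the Sin3 corepressor complex. The arrays share populations and runs, and both enter these correlations.

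Max, the shared partner, was at 12.58 and 12.73 in LT-HSC, 12.42 to 12.75 in ST-HSC and MPP, 12.34 to 12.60 in CMP, 12.24 to 12.47 in GMP and 12.21 to 12.76 in MEP. The groups overlapped, and the difference between HSC subsets and myeloid populations was 0.20 (standard error 0.10, adjusted p = 0.136). With scanning run in the fit it was -0.17 (adjusted p = 0.511), and without the unnumbered MEP array it was 0.25 and passed the test (adjusted p = 0.0361).

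The Mxd genes, whose proteins oppose Myc at shared sites, differed in opposite directions. Mxd1 was higher in HSC subsets by 0.65 (standard error 0.14, adjusted p = 0.00272) at its brightest probe. Its levels were 10.10 and 10.12 in LT-HSC, 10.28, 9.97 and 10.31 in ST-HSC and 10.57, 9.63 and 10.69 in MPP, against 9.99, 9.78 and 9.48 in CMP, 9.46, 9.25 and 9.51 in GMP and 9.496, 9.42 and 9.57 in MEP. All arrays of HSC subsets were above all GMP and MEP arrays, while those of CMP overlapped with them. Within run 2 the difference was 0.98, and with run in the fit it was 0.98 as well. The values in GMP (-0.56, adjusted p = 0.0515) and MEP (-0.46, adjusted p = 0.0826) missed the threshold in the main comparison, and both passed it with run in the fit (adjusted p = 0.0403 and 0.0437). The other probe of Mxd1, at 5.13 to 7.11, had a Pearson correlation of -0.01 with the first and was not called.

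Mxd3, which is known for its presence in dividing progenitors, was lower in HSC subsets at both probes, by 0.72 (adjusted p = 0.000642) and by 1.24 (standard error 0.13, adjusted p = 7.56e-06). The brightest probe was at 6.86 and 7.21 in LT-HSC, 7.15, 7.47 and 7.43 in ST-HSC and 7.82, 7.94 and 8.42 in MPP. It was at 8.45, 8.89 and 9.01 in CMP, 7.76, 8.23 and 8.09 in GMP and 7.67, 7.64 and 8.06 in MEP. The mean was lowest in LT-HSC and highest in CMP, with ST-HSC, MEP, GMP and MPP between them in this order. CMP exceeded MPP (0.72, adjusted p = 0.047) and MEP (0.99, adjusted p = 0.00573), and MPP exceeded LT-HSC (1.02, adjusted p = 0.0256). The other probe gave the same calls for these pairs (adjusted p = 0.00508, 0.00971 and 0.00614), and the probes had a Pearson correlation of 0.92. The calls between CMP and MPP were lost with run in the fit (adjusted p = 0.168 and 0.0766), and those of the other pairs held. Within run 2 the differences between HSC subsets and myeloid arrays were -0.46 and -0.48, and with run in the fit they were -0.65 (adjusted p = 0.0645) and -0.73 (adjusted p = 0.0132). In GMP the second probe was higher by 0.53 (adjusted p = 0.0399), a call lost with run in the fit (0.22, adjusted p = 0.371), with normexp (0.24, adjusted p = 0.114), with normalization to the 75th percentile (adjusted p = 0.149), in the authors' table (adjusted p = 0.0616), without LT-HSC (adjusted p = 0.425) and in 11 of the 17 fits without a single array.

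Mxd4 was lowest in MEP at its brightest probe, which was at 9.25, 9.07 and 9.11 in MEP, at 9.62 and 9.60 in LT-HSC, 9.88, 9.86 and 10.35 in ST-HSC and 10.04, 10.12 and 10.82 in MPP. It was at 10.59, 10.64 and 10.49 in CMP and at 10.42, 10.52 and 10.24 in GMP. No MEP array reached any other array, and the difference was -1.04 (standard error 0.16, adjusted p = 0.000174). It was -1.38 within run 1, against CMP and GMP, and -1.36 within run 2. At the second probe LT-HSC had the lowest mean, at 7.79 against 7.87 in MEP, and MEP differed from the others by -0.44 (adjusted p = 0.0298), a call lost without MEP replicate 2 (adjusted p = 0.107) or without the unnumbered MEP array (adjusted p = 0.111). LT-HSC was also below CMP (-0.96, adjusted p = 0.0094) and GMP (-0.78, adjusted p = 0.0192) at the brightest probe. Both calls were lost with run in the fit (-0.26, adjusted p = 0.332, and -0.09, adjusted p = 0.758).

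The dimmest probe of Mxd4 was well above background on 4 of the 8 arrays of HSC subsets and on none of the others. By the mean of the population means as measured, it was at least 1.37-fold higher in HSC subsets (adjusted p = 0.0486). The dim, unnumbered LT-HSC array gave its highest value, 9.25, and the other LT-HSC array was at 2.80 and below background. The computed difference was 2.14, and without the dim array it was 1.06 (adjusted p = 0.182), with a mean in HSC subsets of 3.67, below the level of 4.29 that counted as measurable, so that no bound holds. The call was lost in 14 of the 17 fits without a single array, and this probe had a Pearson correlation of -0.19 with the brightest.

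Mxi1, also known as Mxd2, was highest in GMP, at 10.19, 10.13 and 10.15. It was at 9.83 and 9.81 in LT-HSC, 9.85, 9.56 and 9.63 in ST-HSC, 9.82, 9.69 and 9.75 in MPP, 9.63, 9.62 and 9.33 in CMP and 10.002, 9.83 and 9.59 in MEP. No other array reached those of GMP, and the difference was 0.44 (standard error 0.11, adjusted p = 0.0129). It was 0.39 within run 1, against CMP and MEP, and 0.57 within run 2. Without GMP replicate 1 it was 0.42 (adjusted p = 0.0632) and without GMP replicate 2 it was 0.45 (adjusted p = 0.0548). GMP exceeded CMP (0.63, adjusted p = 0.0203) and ST-HSC (0.48, adjusted p = 0.0301), while its lead over LT-HSC, the next population, missed the threshold (0.33, adjusted p = 0.136). The difference of ST-HSC from GMP was not called with run in the fit (-0.36, adjusted p = 0.179).

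Mnt, the broadly present antagonist of Myc, was highest in MPP (12.51, 12.16 and 12.72) and CMP (12.53, 12.50 and 11.96). ST-HSC were at 12.34, 11.96 and 12.29, LT-HSC at 11.77 and 11.46, GMP at 12.01, 11.61 and 11.55 and MEP at 11.62, 11.57 and 11.34. All MEP arrays were below all ST-HSC, MPP and CMP arrays. Mnt fell by 0.56 in MEP (standard error 0.16, adjusted p = 0.0193), a call lost with normalization to the 75th percentile (-0.31, adjusted p = 0.25), without MEP replicate 2 (-0.59, adjusted p = 0.0538) and without the unnumbered MEP array (-0.47, adjusted p = 0.0936). MPP was above MEP by 0.95 (adjusted p = 0.00327) and above LT-HSC by 0.85 (adjusted p = 0.0464). For HSC subsets against myeloid populations it was 0.24 higher (adjusted p = 0.154). It was 0.89 within run 2 and 0.68 with run in the fit (adjusted p = 0.0357), and 0.47 without LT-HSC (adjusted p = 0.0143).

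Mga, which links Max to Polycomb proteins, was lower in HSC subsets by 1.32 (standard error 0.22, adjusted p = 0.000358) at its brightest probe. This value moved with the run. Among the myeloid arrays, those of run 1 were at 9.82 to 10.02 and those of run 2 at 8.96 (CMP), 9.28 (GMP) and 8.85 (MEP). The ST-HSC and MPP arrays of run 2 were at 8.73 and 9.02, and run 3 minus run 2 was -0.61 on average. Within run 2 the difference of HSC subsets from the myeloid arrays was -0.16, and with run in the fit the difference was -0.25 (adjusted p = 0.486). The second probe gave -0.19 (adjusted p = 0.202), and the third was not well above background on any array.

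**Figure D2:**
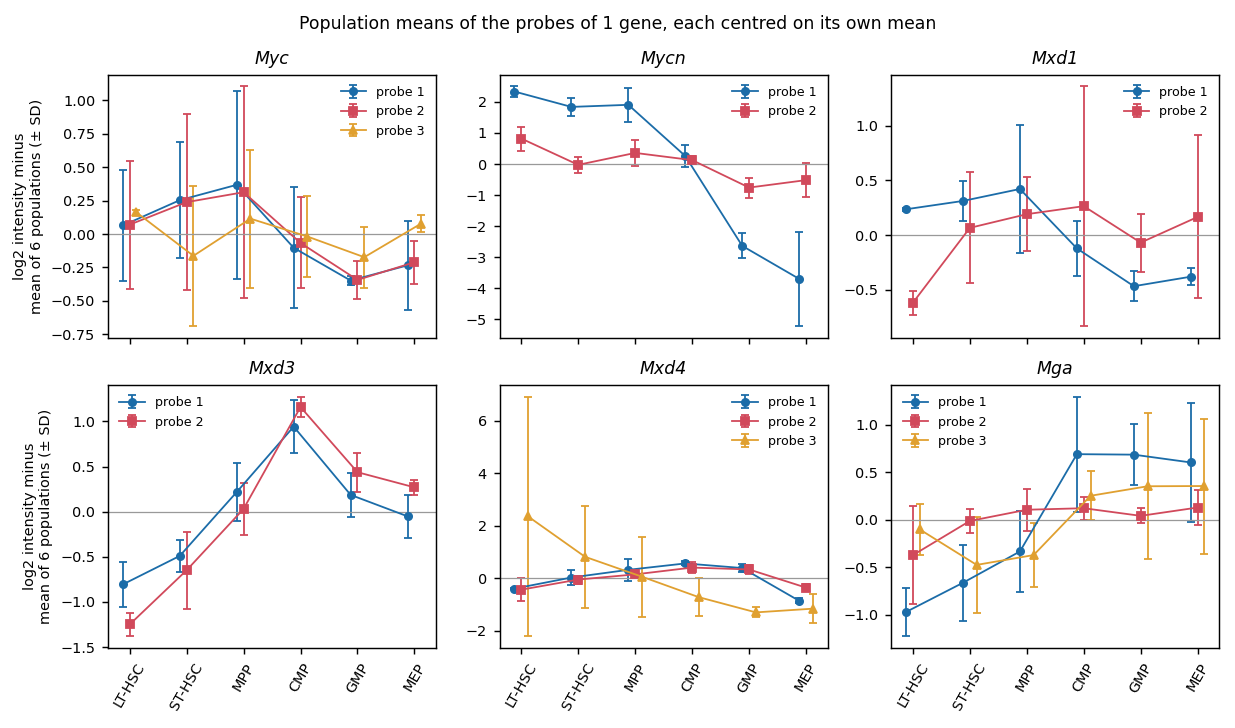
Population means of every probe of the 6 genes with more than 1 probe, each centred on its own mean over the populations (log2 intensity, vertical axis, with bars of 1 SD over arrays). The probes of Mxd3 rise and fall together, while the probes of Mxd1 and the dimmest probe of Mxd4, whose LT-HSC arrays were at 2.80 and 9.25, do not follow the others.

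Between HSC subsets and myeloid populations, 8 of the 19 probes were called, 5 higher and 3 lower, against 41.3% of all probes. Read by the brightest probe, Mycn, Mycl1 and Mxd1 were higher in HSC subsets and Mxd3 and Mga were lower, while 21.7% of all gene names were higher and 19% lower. The median difference of the 19 probes was 0.08, against -0.02 over all probes, and the median size was 0.46 against 0.43. Over all probes 7478 of the 17006 called were higher in HSC subsets, and with normalization to the 75th percentile 10854 of 16942 were, as that scaling moved the median of all probes from -0.02 to 0.31.

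In GMP, 5 of the 19 probes were called against 19.7% of all probes. By the brightest probe Mxi1 was higher and Mycn and Mycl1 were lower, while 9.81% of all gene names were higher and 10% lower. The median difference of the 19 probes was -0.17, against -0.01 over all probes. Of the 8098 probes called in GMP over the whole array 4594 were higher, and with normalization to the 75th percentile 3090 of 7142 were, with a median of all probes of -0.29. Without GMP replicate 1, 1 of the 19 probes was called, against 5450 of 41174 probes. Without GMP replicate 2 or the unnumbered GMP array, 2 were, against 4597 and 6327 of all probes.

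In MEP, 5 of the 19 probes were lower and 0 were higher, against 31.3% of all probes called in either direction. By the brightest probe Mycn, Mycl1, Mxd4 and Mnt were lower, while 15% of all gene names were lower and 15.8% higher. At an unadjusted p under 0.05 in limma 7 of the 19 probes were lower and 1 was higher, and the share of all probes at this cut was not computed. The median difference was -0.25, against 0.04 over all probes. Without MEP replicate 2, 3 of the 19 probes were called, against 10201 of 41174 probes.

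**Figure D3:**
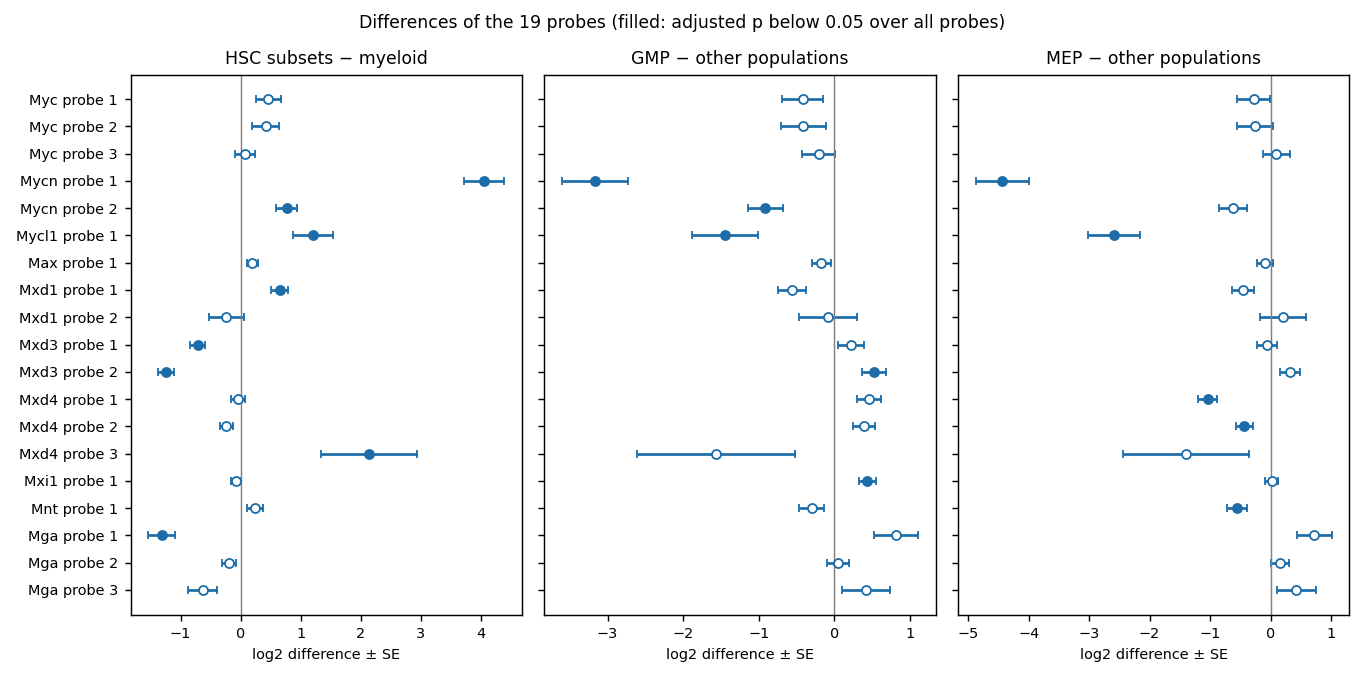
Log2 difference of each of the 19 probes with its standard error in 3 comparisons, with filled symbols where the adjusted p was below 0.05 over all probes. Probe 1 of Mycn lies farthest from 0 in each comparison, at 4.05, -3.16 and -4.44, and Max lies within 0.20 of 0.

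Scanning run was unevenly spread over the populations, since run 1 held only myeloid arrays and run 3 only HSC subsets. With run as a term in the fit, 5 of the 19 probes were called between HSC subsets and myeloid populations in place of 8, while the share of all probes called was 14.5% in place of 41.3%. These were Mycn probe 1 (3.00), Mxd1 probe 1 (0.98, adjusted p = 0.0315) and Mxd3 probe 2 (-0.73, adjusted p = 0.0132), which were called in both fits, and Mxd4 probe 1 (0.52, adjusted p = 0.0133) and Mnt (0.68), which were called in this fit alone. The calls of Mycl1, Mga probe 1, Mxd3 probe 1, Mycn probe 2 and Mxd4 probe 3 were lost. In MEP 7 probes were called against 31.6% of all probes, and in GMP 5 were called against 15.6%. In GMP 3 of the 5 were called in both fits, Mxd1 probe 1 and Mnt were called in this fit alone, and the calls of Mycl1 and Mxd3 probe 2 were lost. LT-HSC arrays lay in run 3 alone, so for them population and run are separated only through the other populations.

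**Figure D4:**
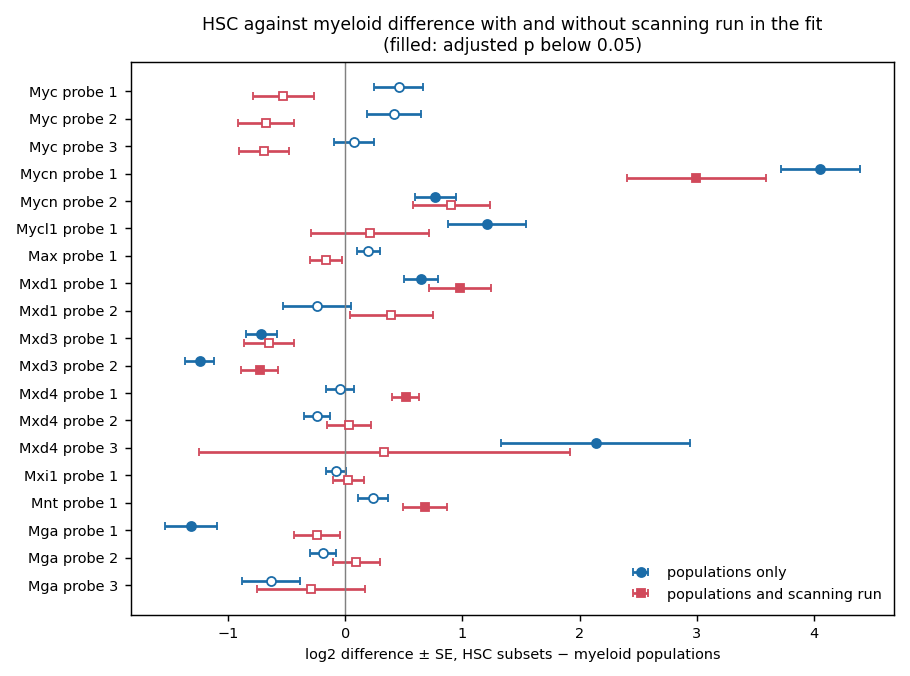
Difference between HSC subsets and myeloid populations (log2, with standard error) of each of the 19 probes in the fit with populations only and in the fit with populations and scanning run, filled where the adjusted p was below 0.05. Mycn probe 1 is on the same side in both fits (4.05 and 3.00), while the probes of Myc and Max lie on opposite sides of 0.

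Over the 15 pairs of populations, 67 of the 285 values of the 19 probes were called, against 17.3% over all probes and pairs. In the fit that holds run 53 were called against 14.4%, and all 6 calls of Mga were lost. Mycn probe 1 and Mxd3 probe 2 had 9 calls each. Between LT-HSC and ST-HSC 0 of the 19 probes were called in limma, against 3.34% of all probes. At an unadjusted p under 0.05 there were 3, and the share of all probes at that cut was not computed. Between CMP and GMP 3 probes were called against 4.77%, namely Mycn and Mycl1, higher in CMP, and Mxi1, higher in GMP. Once run was a term, 6 were called against 8.35%, as Mxd3 (0.76, adjusted p = 0.0245, and 0.72, adjusted p = 0.00737) and Mnt (0.60, adjusted p = 0.0428) were also higher in CMP. Between CMP and MEP 7 probes were called against 16.7%, and between MPP and MEP 7 were called against 32.9%, all of them lower in MEP. Of the latter, Mycn probe 2 was lost in the fit that holds run. Those in both pairs included the brightest probes of Mycn, Mycl1, Mxd4 and Mnt. Between GMP and MEP both called probes were of Mxd4 (1.25 and 0.69 lower in MEP, adjusted p = 0.000477 and 0.0156), against 17.4% of all probes. Mxi1 was also called there, higher in GMP, in the fit that holds run (0.35, adjusted p = 0.0426, 3 probes against 25.4%). Without the LT-HSC arrays 43 values were called over the remaining pairs.

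Other genes of the network were read by the brightest probe in lists of partners, cofactors and targets. The list counts stand against shares of all 28090 gene names of 21.7% higher and 19% lower in HSC subsets, 15.8% and 15% in MEP, and 9.81% and 10% in GMP. In the fit that holds run these shares were 8.16% and 7.26% in HSC subsets, 17.1% and 15.2% in MEP, and 8.20% and 8.49% in GMP. Of the genes that Myc is known to induce, more were lower than higher in HSC subsets and more were higher than lower in MEP. Of 17 measured genes of ribosome biogenesis 13 were lower in HSC subsets and 0 higher, with a median of -0.79 against 0.04 over all gene names. The largest difference was that of Pa2g4, a growth-regulated nucleolar protein (-1.50, standard error 0.14, adjusted p = 3.41e-06). In MEP 14 of the 17 were higher and 0 lower, with a median of 0.85 against 0.00, led by Rrp9, a protein of the U3 snoRNP (1.58, standard error 0.15, adjusted p = 2.7e-06). In GMP 5 were higher and 0 lower, with Pa2g4 again at the head (0.94, adjusted p = 0.00245). With run as a further term, 10 genes were lower in HSC subsets, 16 were higher in MEP, and in GMP 2 were higher and 1 lower. The GMP count was also smaller with normalization to the 75th percentile, at 2 higher, and without LT-HSC, at 1 higher.

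Of 18 targets in metabolism and growth 8 were lower in HSC subsets and 2 higher, with a median of -0.33. Srm, spermidine synthase, was lowest (-1.51, adjusted p = 1.58e-06), and Odc1, the enzyme before it in polyamine synthesis, was the highest of those called (0.45, adjusted p = 0.00188). In MEP 11 were higher and 1 lower. Tfrc, the transferrin receptor through which red cell precursors take up iron, led the former (1.89, adjusted p = 1.72e-07), and Pkm2, a pyruvate kinase, was the latter (-3.26, adjusted p = 2.39e-06). In GMP 4 were higher and 2 lower, with Pkm2 the highest (1.86, adjusted p = 0.000711) and Odc1 the lowest (-0.74, adjusted p = 0.000915). In HSC subsets 7 were lower and 0 higher once run was a term, and 9 were lower and 0 higher with normalization to the 75th percentile.

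Of 10 cell cycle targets 7 were lower in HSC subsets and 2 higher, with a median of -0.59. Cdk4, the kinase of the G1 phase, was lowered most (-1.43, adjusted p = 9.57e-05), and Tert, the catalytic subunit of telomerase, was higher in HSC subsets (1.76, adjusted p = 0.0023). In MEP 7 were higher and 1 lower, from Cdk4 (0.90, adjusted p = 0.019) to Ccnd2, cyclin D2 (-1.16, adjusted p = 6.51e-05). In GMP 3 were higher and 0 lower, with E2f1, a transcription factor of the G1 to S transition, at 0.91 (adjusted p = 0.00683). With run in the fit 2 cell cycle genes were lower in HSC subsets in place of 7, and 4 were higher in MEP in place of 7. In GMP 1 was higher in place of 3.

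Of 12 measured genes that Myc is known to repress, 7 were higher in HSC subsets and 2 lower, with a median of 0.48. Cdkn1a, which encodes the cell cycle inhibitor p21, differed most (1.88, standard error 0.36, adjusted p = 0.000862). The lowest call was that of Ndrg2, a growth suppressor gene (-0.53, adjusted p = 0.0227), and the other lower gene, Cdh2, was not well above background on any array. In MEP 5 were lower, led by Cdkn1a (-3.07, adjusted p = 0.000182), and 1 was higher, Gadd45a, a stress response gene (0.73, adjusted p = 0.00507). The other 6 were not called there, and the median was -0.20, or -0.01 without LT-HSC. In GMP 4 were lower, led by Cdkn1c, which encodes p57 (-1.85, adjusted p = 6.14e-05), and 2 were higher, led by Itgal, an integrin of leukocytes (1.002, adjusted p = 0.000587). Cdkn2b, among the 7 higher in HSC subsets and the 4 lower in GMP, was well above background on 3 of 17 arrays. With run as a further term, 6 were higher and 1 lower in HSC subsets.

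Of 9 co-activators that Myc recruits 8 were lower in HSC subsets and 0 higher, with a median of -0.66. Among them were Ruvbl2, Kat2a, Kat5, Ep400, Wdr5, Ruvbl1 and Trrap, which are parts of acetyltransferase, chromatin remodelling and methyltransferase complexes. In the fit that holds run, 1 of the 9 was lower. In MEP 4 were higher and 0 lower, led by Ruvbl2 (0.85, adjusted p = 0.00708), and in GMP Wdr5 alone was called (0.42, adjusted p = 0.0153). The Wdr5 call was lost in the fit that holds run and without LT-HSC, where 0 of the list were called in GMP.

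Of 9 Sin3 and Hdac corepressors, the partners of the Mxd proteins, 2 were higher in HSC subsets and 1 lower, which is near the shares of 21.7% and 19% over all gene names. Sin3b, a scaffold of the complex, was among the former (0.47, adjusted p = 0.000371), and Ncor1, a nuclear receptor corepressor, was the latter (-0.91, adjusted p = 0.000198). In MEP 2 were lower and 0 higher, with Sin3b at -0.58 (adjusted p = 0.000767). In GMP Ncor1 was higher (0.85, adjusted p = 0.00517) and Sin3b lower (-0.32, adjusted p = 0.0454). The median of this list was 0.08 in HSC subsets and -0.02 in MEP, and its sign depended on the scaling, at -0.005 and 0.27 with normalization to the 75th percentile. Once run was a term, 2 were higher and 0 lower in HSC subsets, 2 were lower in MEP, and in GMP 1 was higher and 0 lower.

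Of 8 further genes of the Mga complex 3 were higher in HSC subsets and 2 lower. Rnf2, a Polycomb ubiquitin ligase, was higher (1.09, adjusted p = 4.81e-05), and L3mbtl2, which binds to the same complex, was lower (-2.56, standard error 0.26, adjusted p = 7.44e-06). In MEP these changed places, with L3mbtl2 at 2.08 (adjusted p = 0.000343) among 4 higher genes and Rnf2 at -1.10 (adjusted p = 0.000457) the only lower gene. In GMP L3mbtl2 was higher (1.42, adjusted p = 0.00942) and 2 were lower, led by Pcgf6 (-0.98, adjusted p = 0.00611). Adding run as a term left 0 higher and 1 lower in HSC subsets.

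Of 7 genes of the Mlx arm and of Myc-binding proteins, 2 were higher and 3 lower in HSC subsets. Mlx, the Max-like partner of the glucose-sensing Mondo proteins, was lower (-1.42, adjusted p = 1.74e-06) and was higher in GMP (1.56, adjusted p = 1.73e-05). Mlxipl, a Mondo gene well above background on 10 arrays, was higher in HSC subsets by 0.95 (adjusted p = 0.0365), although its mean was highest in GMP (5.24, against 4.36 to 4.87 in the HSC subsets, 2.90 in CMP and 3.04 in MEP). In MEP 4 were lower and 2 higher, with Bin1, a Myc-binding adaptor, at -3.44 (standard error 0.18, adjusted p = 2.28e-08) and Mycbp at 1.002 (adjusted p = 0.0321). In GMP 2 were higher and 0 lower. With run as a further term, 0 were higher and 1 lower in HSC subsets.

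Of 8 genes for turnover of the Myc protein 2 were higher and 4 lower in HSC subsets. Usp28, a deubiquitinase of Myc, was higher (0.59, adjusted p = 0.00427) and was lower in MEP (-1.26, adjusted p = 0.000135). Gsk3b, the kinase that marks Myc for degradation, was well above background on 15 arrays, all but those of LT-HSC. It was lower in HSC subsets (-2.29, adjusted p = 7.49e-05) and higher in MEP (1.47, adjusted p = 0.0144) and GMP (1.33, adjusted p = 0.0376). The GMP call was lost with normalization to the 75th percentile, with normexp and without LT-HSC. In MEP 3 were higher and 2 lower, and in GMP 1 was higher and 1 was lower, the ligase gene Huwe1 (-0.47, adjusted p = 0.0204). The Huwe1 call was lost with normalization to the 75th percentile and with run as a term, where 3 were higher and 0 lower in GMP. In the fit that holds run, 0 were higher and 2 lower in HSC subsets.

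**Figure D5:**
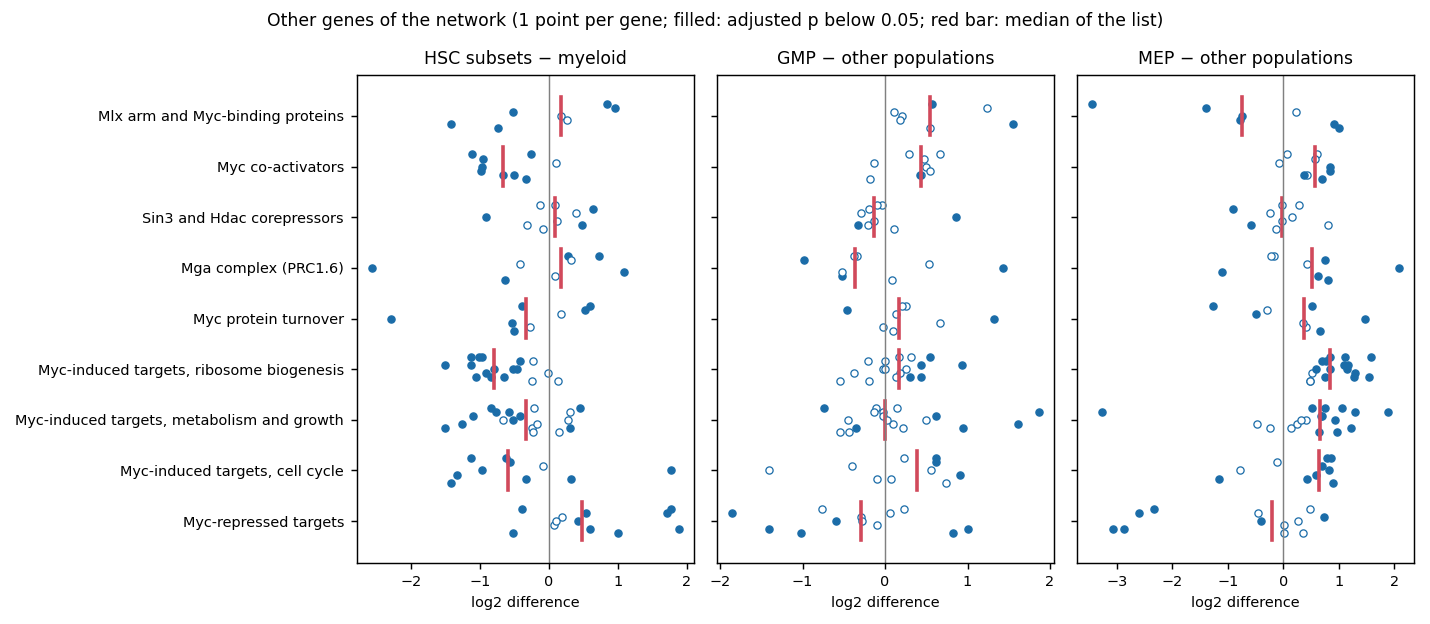
Log2 difference of each gene of the 9 lists in 3 comparisons (1 point per gene, filled where the adjusted p was below 0.05), with the median of the list as a red bar. The medians of ribosome biogenesis targets lie at -0.79 in HSC subsets and 0.85 in MEP, and those of repressed targets at 0.48 and -0.20.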

How the data were processed

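For each array the authors deposited the scanner output, in which spot intensity had been background-subtracted by Agilent Feature Extraction, version 9.5.3.1 in run 1 and 10.2.1.3 in runs 2 and 3, and not normalized between arrays. They also deposited a quantile-normalized log2 table, used here as an alternative. Its rows were matched to spots by order, since in that order each of the 17 columns ranked spots exactly as the median signal of its array did (Spearman rho of 1).

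Quantile normalization of log2 intensity over every spot followed the methods of the study. The 1639 control spots and spots with an outlier mark were left out, which left 161 probe values missing, 0 of them of members, and spots of a probe were averaged. In limma 3.58.1 (R 4.3.3), lmFit and eBayes were used with 1 mean per population over all 17 arrays, with Benjamini-Hochberg adjustment over 41174 probes at 0.05. An "at least" fold sets the brighter side against the dimmer side, each as the mean of its population means. Values of the brighter side are taken as measured, also where they are not well above background. Each array of the dimmer side is raised at least to the lowest level of any probe well above background on it. The named genes are all members, the called list genes with the largest difference each way, and the 3 gene names most like Myc and Mycn. The members and lists were chosen with earlier results of these data known. The co-activators beyond Ruvbl2 and Wdr5, and Cdh2, Cdkn2b and Sin3b in HSC subsets and MEP, were named after their values were seen. Some genes that the rule names are not reported here.

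On simulated data of 41015 probes, 100 were changed per size. Between HSC subsets and myeloid populations 53% of differences of 1 and 88% of differences of 2 were recovered. In GMP 44% and 74% were, and in MEP 42% and 74%, with 0 of wrong sign. Of the unchanged probes, 10, 8 and 6 were called in these comparisons. The simulated noise was independent between arrays and held no scanning run. Far fewer probes were changed than were called in the data, so these shares need not hold for the data. The alternatives were normalization to the 75th percentile, normexp (offset 50), a filter on dim probes, the authors' table, scanning run, slide and replicate number as blocks, leaving out LT-HSC and leaving out each array. The number of arrays limits the precision.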

Additional observations from a re-analysis of the deposited data

How the results depend on the processing

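Of values called for members, 124 of 144 under the processing alternatives and 270 of 306 with 1 array left out kept direction and call, and 0 reversed. With scanning run as a block 5 in place of 8 probes were called between HSC subsets and myeloid populations, and 5970 in place of 17006 over the whole array. Without LT-HSC 43 in place of 67 pair values were called, over fewer pairs. With 1 array left out the calls ranged from 9 to 13 in the F-test, 7 to 10 between HSC subsets and myeloid populations, 1 to 7 in GMP, 3 to 7 in MEP and 52 to 72 over pairs. Over the whole array 8098 probes were called in GMP, 5450 without GMP replicate 1 and 4597 without GMP replicate 2. The values that reversed had not passed the test, and of them Mxd4 probe 1 with run as a block passed it. With run as a block, Myc probe 1 was at -0.53 in HSC subsets, 0.17 in GMP and 0.31 in MEP, Max at -0.17, 0.047 and 0.13, Mxi1 at 0.027 in HSC subsets and -0.043 in MEP, and Mxd4 probe 1 at 0.52 in HSC subsets. In HSC subsets Mxd4 probe 1 was at 0.14 without LT-HSC and 0.11 with slide as a random block. Max in MEP was at 0.24 with normalization to the 75th percentile. With 1 array left out, Mxd4 probe 1 in HSC subsets ranged from -0.13 to 0.0012, and in MEP Max ranged from -0.25 to 0.022, Mxi1 from -0.076 to 0.13 and Mxd3 probe 1 from -0.20 to 0.014. The cause was not tested.

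Arrays with the same replicate number went together among HSC subsets or among myeloid populations of a run and not otherwise. The numbers were thus not taken to pair the samples over all populations. Arrays with different numbers were not compared, and the run enters these values. A shared number therefore cannot be told from a shared run. Deviations from the population means of arrays with the same number correlated by 0.22 to 0.64 within a run for numbers 1 to 3, and by -0.01 to -0.09 across runs. The unnumbered arrays of run 2 correlated by 0.58 to 0.78 among HSC subsets or among myeloid populations, and by -0.09 to 0.15 between them. With the replicate block 11 probes were called in the F-test (against 46.9% of all probes), 8 between HSC subsets and myeloid populations (39.0%), 7 in GMP (25.0%), 6 in MEP (36.5%) and 74 values over pairs (21.3%). Between CMP and GMP 5 in place of 3 probes were called (6.89%), with Mxd3 probe 1 and Mnt added, and between LT-HSC and ST-HSC 3 in place of 0 (17%), namely Mxd4 probe 3, Mnt and Mga probe 2. Between GMP and MEP it added Mxi1, and further calls were gained in other pairs. The block lost Mycl1 between LT-HSC and MPP, Mycn probe 1 between LT-HSC and CMP, and Mxi1 between ST-HSC and GMP. It also lost Mycn probe 2 and Mxd4 probe 2 between MPP and MEP, and every pair call of Mga probe 1. Under this block Mxd4 probe 1 was at 0.0073 and Mxi1 at 0.027 in HSC subsets, and Mxd3 probe 1 at 0.0021 and Mxi1 at -0.043 in MEP. The calls of Mycl1 in HSC subsets (1.10, adjusted p = 0.0535) and Mxd3 probe 2 in GMP (0.52, adjusted p = 0.0725) were not made with it. Mnt was called in HSC subsets (0.40, adjusted p = 0.0211) and GMP (-0.39, adjusted p = 0.0439), Mxd1 probe 1 in GMP (-0.67, adjusted p = 0.00932) and MEP (-0.57, adjusted p = 0.0128), and Mxd4 probe 2 in GMP.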

Other observations

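In the scanner files of run 1, whose design is an earlier annotation of the array, 1 further probe carried the name Mxi1. The files of runs 2 and 3 name the same probe BC030170, so it was not counted as a member. Over the 17 arrays the brightest probes of Myc and Mycn had a Pearson correlation of 0.62, which holds both the populations and the runs.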
